A study of Mus musculus with 6 samples.

Results

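Of the 27506 genes in the count table, 9 are described here: 5 inhibitors of bone morphogenetic protein (BMP) signaling (Nog, Chrd, Grem1, Fst and Bambi) and the 4 Id genes that BMP signaling activates (Id1, Id2, Id3 and Id4). The rule took them by gene symbol, as known inhibitors and targets of the pathway, and used no measured value, though the list was drawn up with earlier results of these data known. RNA from the pulp of mandibular first molars of C57BL/6 mice was sequenced at postnatal day 3.5 in 3 Ror2fl/fl control libraries and 3 Osr2-Cre;Ror2fl/fl libraries, the latter called mutant below. By the genotype in the labels, both groups carry 2 floxed Ror2 alleles and only the mutants carry Cre recombinase under Osr2 control. Recombination is thus directed to tooth mesenchyme and the bone around it, while the tooth epithelium is spared. The library names of the controls hold the letters WW or OW and those of the mutants OR, which the sources used here do not explain. The comparison asks how these transcripts differ when Ror2, a receptor of noncanonical Wnt ligands, is deleted from the mesenchyme as molar roots form. The sources used here do not state whether each library came from a separate animal, so p-values measure only the spread between these libraries, which may be partly technical. Whether the groups were prepared and sequenced together is also not stated, so a difference in handling cannot be told apart from genotype.

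BMP ligands bind receptor serine/threonine kinases, which phosphorylate Smad1, Smad5 and Smad9, and these enter the nucleus with Smad4 and activate target genes. Noggin, chordin and gremlin bind BMP ligands outside the cell and keep them from their receptors, follistatin does this mainly for activins and also for some BMPs, and Bambi is a membrane protein that resembles a type I receptor but lacks the kinase. The Id genes are among the most direct targets, and their products bind basic helix-loop-helix (bHLH) transcription factors and keep them from DNA. In teeth, BMP signals pass between the epithelium and the mesenchyme and take part in odontoblast differentiation and root formation.

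The proximal promoters of Chrd and Id4, the antagonist and the Id gene with the smallest p-values in the comparison below, are shown because Smad complexes are known to bind GC-rich letters such as GGCGCC and GGAGCC. Each is the 250 bases before the RefSeq start on GRCm38.p6, with no base in an annotated exon, written 5′ to 3′ on the strand of the gene. Capitals mark matches to GGCGCC or GGAGCC on either strand. The Chrd window is chr16:20732877-20733126 on the plus strand, and the Id4 window is chr13:48260866-48261115 on the plus strand.
Chrd: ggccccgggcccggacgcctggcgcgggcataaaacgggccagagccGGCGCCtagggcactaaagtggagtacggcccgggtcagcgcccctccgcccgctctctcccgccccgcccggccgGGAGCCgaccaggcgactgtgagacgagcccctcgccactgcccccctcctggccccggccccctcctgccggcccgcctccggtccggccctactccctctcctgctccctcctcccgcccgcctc
Id4: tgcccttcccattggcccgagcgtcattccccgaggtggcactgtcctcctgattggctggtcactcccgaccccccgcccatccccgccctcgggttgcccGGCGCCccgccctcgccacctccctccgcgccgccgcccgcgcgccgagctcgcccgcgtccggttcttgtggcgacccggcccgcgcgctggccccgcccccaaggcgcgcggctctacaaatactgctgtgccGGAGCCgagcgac
Each window held 1 GGCGCC and 1 GGAGCC, and neither held GTCTG or CAGAC, the core letters of another Smad motif. Among 32851 RefSeq promoter windows of the same length, 9.59% held GGCGCC, 26.0% held GGAGCC or its complement GGCTCC, and 42.2% held GTCTG or its complement. Both windows were rich in GC, at 78.0% for Chrd and 75.6% for Id4. Of the 9 genes, 5 had a window in the table used, and those of Grem1, Id2 and Id3 are not printed. The Id2 window also held 1 GGCGCC and 1 GGAGCC. The Grem1 window held 1 GGCGCC and no GGAGCC, and the Id3 window held 1 GGAGCC and no GGCGCC. Matches to GTCTG or CAGAC numbered 1 for Grem1, 2 for Id3 and 0 for Id2. Annotated exons covered 161 of the 250 bases of the Id2 window, all 250 of the Id3 window and 0 of the Grem1 window. A match is a description of letters only, since no binding was measured.

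The libraries held 56134770 to 62628940 estimated counts, and their depth left 334 or more counts in every library for each of the 9 genes but Grem1, which had 18 to 59. Values are CPM, the usual depth-scaled read count, with library sizes scaled by edgeR's trimmed mean of M-values (TMM). Ror2, the deleted gene, measured 38.2, 36.2 and 36.7 CPM in the controls and 27.9, 28.1 and 26.3 CPM in the mutants (log2 fold change -0.43, SE 0.08, edgeR adjusted p = 0.013), so the groups did not overlap and transcript remained in every mutant library. This call was lost without control library 2 (adjusted p = 0.066) or control library 3 (adjusted p = 0.075). It was also lost in an alternative fit with a block for the sample index in the labels. Amelx, which encodes the enamel protein amelogenin of the epithelium, was the gene with the most counts in every library, at 9.15 to 9.97% of counts in the controls and 12.6 to 15.2% in the mutants, although the tissue is labelled dental pulp. Markers of dental mesenchyme and of odontoblasts were also present in every library.

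Of the 9 genes, 3 differed between the groups at an adjusted p under 0.05 in edgeR's quasi-likelihood test: Chrd rose, and Nog and Id4 fell. Over all 19330 genes tested, 20.2% passed the same threshold, 10.4% higher and 9.84% lower in the mutants, and over the 17 alternative fits used below 4.39 to 25.2% did. With so many genes called, 3 of 9 is not a share that sets these genes apart. The groups did not overlap in 5 of the 9 genes (Chrd, Nog, Id2, Id3 and Id4), against 44.7% of all genes tested. Chrd lay higher in every mutant library, as did 22.6% of all genes, and the other 4 lay lower, as did 22.1%. The median log2 fold change was 0.04 over the 5 antagonists, -0.24 over the 4 Id genes and 0.01 over all genes tested. In bulk tissue, fewer cells of a type and less RNA per cell cannot be told apart.

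**Figure D1:**
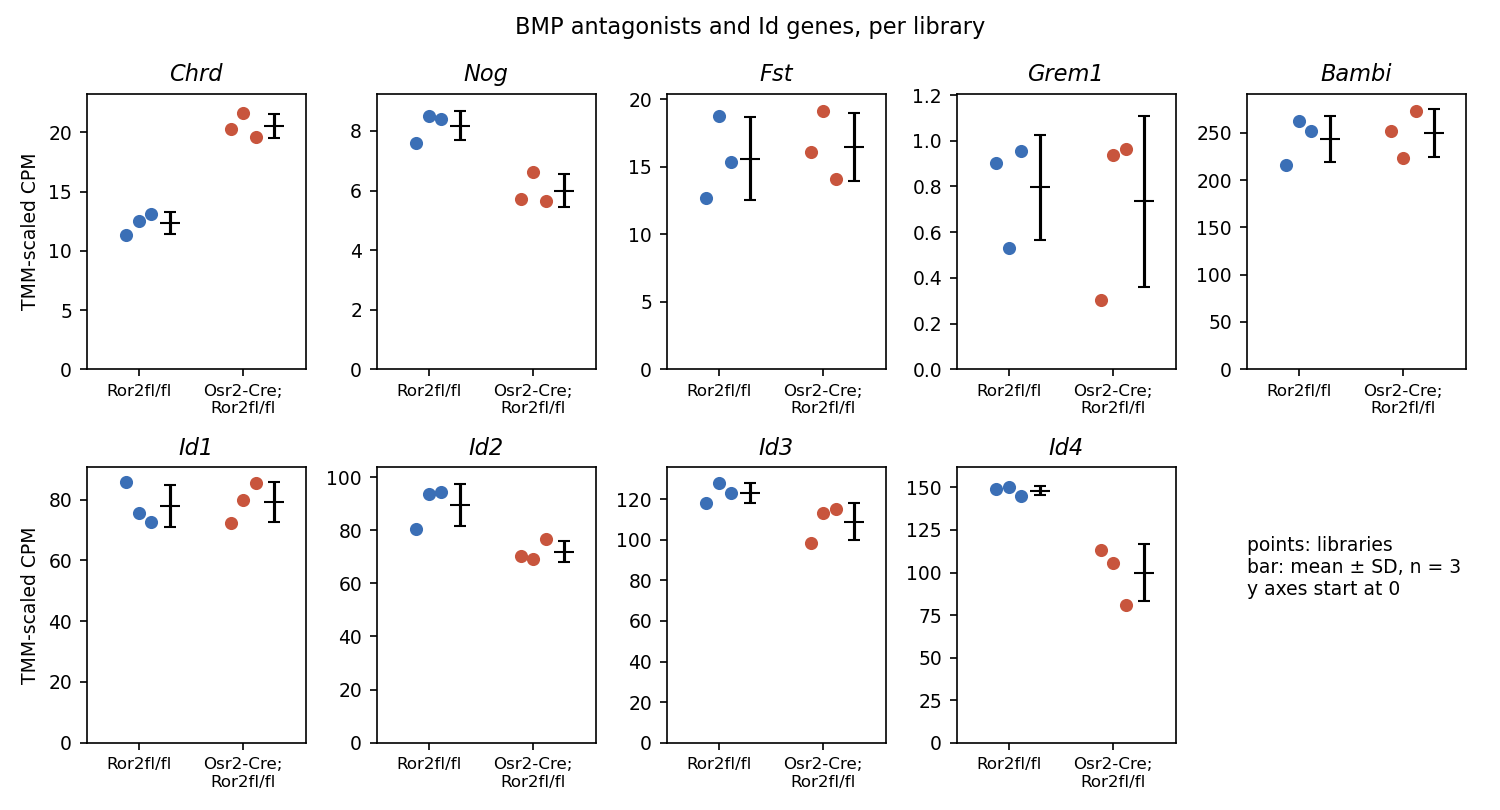
TMM-scaled CPM of the 9 genes in each library, with 3 Ror2fl/fl control libraries in blue and 3 Osr2-Cre;Ror2fl/fl libraries in red, and black bars giving the mean ± SD of each group on axes that start at 0. Chrd lies higher in every mutant library than in any control library, Nog, Id2, Id3 and Id4 lie lower, and the groups overlap for Fst, Grem1, Bambi and Id1.

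Chrd (chr16:20733127-20742384, plus strand, mm10) encodes chordin, which binds BMP2, BMP4 and BMP7 and is cut by tolloid proteases. It measured 11.4, 12.5 and 13.1 CPM in the controls and 20.3, 21.7 and 19.6 CPM in the mutants. Every mutant library lay above every control library, and the means were 12.3 ± 0.898 and 20.5 ± 1.02 CPM (SD, n = 3 in each group). The log2 fold change was 0.73 (SE 0.11, 95% interval 0.49 to 0.98), a 1.66-fold rise with an edgeR adjusted p of 0.0043, which ranked 465 among the genes tested. The exact two-sided permutation test gave p = 0.10, the smallest value that 3 libraries against 3 allow. The call held in all 17 alternative fits, with log2 fold changes of 0.62 to 0.77 and adjusted p-values of 4.1e-07 to 0.038.

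Chrd overlaps its neighbor Thpo, which lies on the opposite strand and encodes thrombopoietin, over 1385 bases, and use of strand in the counting is not given in the sources used here. Of the stretches of 75 bases in Chrd transcripts, 2.25% also occur in Thpo. Thpo was also called higher, at 0.324 ± 0.0657 CPM in the controls and 0.989 ± 0.602 CPM in the mutants (log2 fold change 1.6, adjusted p = 0.045), levels far under those of Chrd. With the counts of both genes summed, the log2 fold change was 0.76 and the adjusted p remained 0.0043.

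Nog (chr11:89300638-89302332, minus strand) encodes noggin, the secreted antagonist with high affinity for BMP2 and BMP4. Its values were 7.61, 8.49 and 8.41 CPM in the controls and 5.72, 6.62 and 5.66 CPM in the mutants. All 3 mutant libraries lay under the lowest control, and the group means were 8.17 ± 0.487 and 6.00 ± 0.539 CPM (SD, n = 3 each). The log2 fold change was -0.45 (SE 0.13, 95% interval -0.74 to -0.15), which is 1.36-fold lower, with an edgeR adjusted p of 0.045. Nog thus moved opposite to Chrd, although both encode secreted BMP antagonists. Its call lay close to the threshold and was lost in 12 of 17 alternatives, with adjusted p-values over all 17 of 0.013 to 0.17. These included scaling by library size alone (0.068) and leaving out control library 1 (0.059), 2 (0.17) or 3 (0.17) or mutant library 1 (0.094) or 3 (0.063), while the log2 fold change stayed between -0.62 and -0.37.

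Fst (chr13:114452290-114458951, minus strand), encoding follistatin, measured 12.7, 18.8 and 15.3 CPM in the controls and 16.1, 19.1 and 14.1 CPM in the mutants. The groups overlapped, with the lowest value in control library 1 and the highest in mutant library 2. The log2 fold change of 0.08 (SE 0.17, 95% interval -0.32 to 0.47, adjusted p = 0.77) did not pass the test, and its interval covers changes in both directions.

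Grem1 (chr2:113746164-113758646, minus strand), encoding gremlin, had the fewest counts of the 9 genes. It measured 0.901, 0.532 and 0.956 CPM in the controls and 0.304, 0.936 and 0.966 CPM in the mutants, from 18 counts in mutant library 1 to 59 in control library 3. The groups overlapped, and mutant library 1 stood apart from the other mutants. The 95% interval of its log2 fold change ran from -1.15 to 0.92 (estimate -0.12, SE 0.45, adjusted p = 0.87), so that changes within this interval could not be told from 0 with these libraries. Without mutant library 1 the estimate was 0.25 (adjusted p = 0.61).

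Bambi (chromosome 18) had the most counts of the 5 antagonists and made up 82.2 to 87.1% of their summed CPM (79.0 to 84.6% per kilobase of exons). Its values were 216.2, 262.1 and 252.3 CPM in the controls and 252.3, 223.8 and 273.5 CPM in the mutants. These ranges overlapped, and the log2 fold change was 0.04 (SE 0.13, 95% interval -0.25 to 0.32, adjusted p = 0.85). Of the 5 antagonists, then, 1 was called higher, 1 lower and 3 neither.

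**Figure D2:**
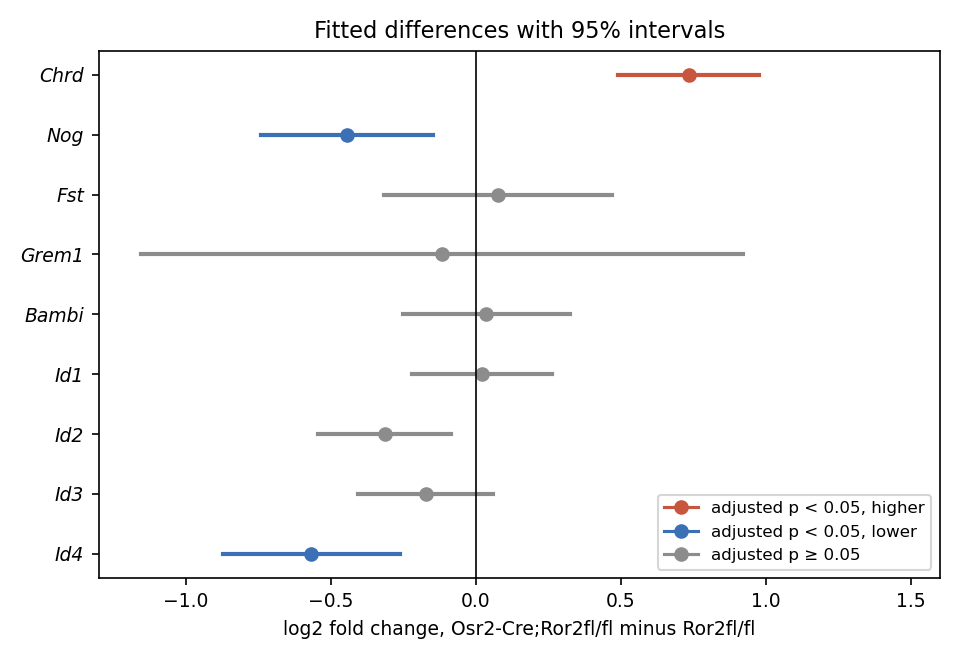
Log2 fold change of each of the 9 genes, Osr2-Cre;Ror2fl/fl minus Ror2fl/fl control, with its 95% interval from edgeR's quasi-likelihood fit of 3 against 3 libraries. The interval of Chrd (0.49 to 0.98) lies above 0, those of Nog, Id2 and Id4 lie below 0, and Grem1 has the widest.

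Id4 (chr13:48261228-48266026, plus strand), whose product binds bHLH factors, had the largest difference of the Id genes in the reported fit, though not with a GC offset, where Id3 was at -0.33 and Id4 at -0.31. It measured 148.9, 150.3 and 145.0 CPM in the controls and 113.4, 105.4 and 81.1 CPM in the mutants. The controls lay close together, while the mutants were all lower and more spread, with mutant library 3 the lowest. Group means were 148 ± 2.76 and 100 ± 16.8 CPM (SD, n = 3 each), and the log2 fold change was -0.57 (SE 0.13, 95% interval -0.87 to -0.26), a 1.48-fold fall with an edgeR adjusted p of 0.024. The call was lost without control library 1 (adjusted p = 0.057), 2 (0.094) or 3 (0.085), with log2 fold changes of -0.59 to -0.56 in those fits. It was also lost with an offset for GC content, which moved the log2 fold change to -0.31 (adjusted p = 0.19).

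Id4 is overlapped on the opposite strand by A330033J07Rik over 1396 bases and by Gm49291 over 1364 bases, and reads from antisense partners cannot be told apart without strand. Both were scarce beside Id4, at 0.162 and 1.59 CPM in the controls and 0.290 and 1.87 CPM in the mutants, and neither was called (adjusted p = 0.28 and 0.45). Adding the counts of Gm49291 to those of Id4 left the log2 fold change at -0.56 (adjusted p = 0.025).

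Id2 (chr12:25093799-25097140, minus strand), an Id gene also regulated outside the BMP pathway, measured 80.3, 93.8 and 94.3 CPM in the controls and 70.2, 69.2 and 76.6 CPM in the mutants. The groups did not overlap, with control library 1 just above mutant library 3. Means were 89.5 ± 7.93 and 72.0 ± 4.0 CPM, and the log2 fold change of -0.31 (SE 0.10, 95% interval -0.54 to -0.09) missed the threshold at an edgeR adjusted p of 0.058. It passed in 2 of 17 alternatives, DESeq2's Wald test (adjusted p = 0.032) and the fit without control library 1 (0.045).

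Id3 (chr4:136143497-136145755, plus strand) had values of 117.9, 127.9 and 122.8 CPM in the controls and 98.4, 113.2 and 115.2 CPM in the mutants. The highest mutant lay just under the lowest control, and the log2 fold change of -0.17 (SE 0.10, 95% interval -0.40 to 0.06) did not pass the test (adjusted p = 0.24). Id1 (chr2:152736251-152737410, plus strand), the Id gene most often used as a readout of BMP signaling, measured 85.7, 75.5 and 72.8 CPM in the controls and 72.3, 79.8 and 85.4 CPM in the mutants. Its groups overlapped almost entirely, and the interval of its log2 fold change ran from -0.22 to 0.26 (estimate 0.02, SE 0.10, adjusted p = 0.90).

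Summed over the 4 Id genes, the controls held 432.8, 447.3 and 434.8 CPM and the mutants 354.3, 367.6 and 358.2 CPM. The sums did not overlap, and both groups were tight, at 438 ± 7.88 and 360 ± 6.82 CPM (SD, n = 3 each). Without Id4, the other 3 genes summed to 284 to 297 CPM in the controls and 241 to 277 CPM in the mutants. These sums did not overlap either, and nor did the groups in 44.7% of all single genes tested. For both sums the exact two-sided permutation test gave p = 0.10, the smallest value that 3 libraries against 3 allow. Id4 took 34.4, 33.6 and 33.3% of the Id sum in the controls and 32.0, 28.7 and 22.7% in the mutants (18.2 ± 0.0874% and 14.2 ± 2.88% per kilobase of exons). The share of Id1 was higher in every mutant than in any control, at 17.8 ± 1.73% in the controls and 22.0 ± 1.72% in the mutants, while its own CPM overlapped between groups. For the CPM shares of Id4 and of Id1, the exact two-sided permutation test gave p = 0.10 each, and 0.18 after Benjamini-Hochberg adjustment over 11 ratios. The 5 antagonists together measured 248.8, 302.4 and 290.2 CPM in the controls and 294.7, 272.1 and 313.8 CPM in the mutants, which overlapped. As a percentage of the Id sum they came to 57.5, 67.6 and 66.7% in the controls and 83.2, 74.0 and 87.6% in the mutants. That ratio did not overlap between groups, but the exact two-sided permutation test gave p = 0.10, the smallest possible, and 0.18 after Benjamini-Hochberg adjustment over 11 ratios. Per kilobase of exons the percentages were lower, at 27.7 ± 2.70 and 32.5 ± 2.36, and the log2 difference between groups was 0.23 in place of 0.35. For the 4 secreted antagonists the percentage was 8.41 ± 0.788 in the controls and 12.1 ± 0.946 in the mutants. When each gene was first divided by its exon length, the secreted antagonists' percentages overlapped between the groups (exact permutation p = 0.20).

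Sums and shares in CPM weight each gene by its length, so the levels of single genes were ordered per kilobase of exons. In the controls the order from the highest was Id3 (68.6 ± 2.79 CPM per kilobase), Id1 (67.2 ± 5.87), Bambi (48.0 ± 4.77), Id4 (38.5 ± 0.716), Id2 (36.7 ± 3.25), Nog (4.82 ± 0.287), Fst (3.40 ± 0.668), Chrd (1.97 ± 0.144) and Grem1 (0.192 ± 0.0556), each with its SD over 3 libraries. The ranges of Id3 and Id1 overlapped, as did those of Id4 and Id2, so the order within these pairs was not resolved. In the mutants Id1 (68.2 ± 5.63) and Id3 (60.8 ± 5.11) overlapped, as did Id2 (29.5 ± 1.64) and Id4 (26.0 ± 4.36). Chrd reached 3.28 ± 0.163 CPM per kilobase there, and its range overlapped that of Nog (3.54 ± 0.318), which in turn overlapped Fst (3.58 ± 0.549). In the controls, by contrast, the range of Chrd lay under those of Nog and Fst. Dividing by the longest transcript instead kept the control rank of 5 of the 9 genes and turned the order of some antagonists. On that scale Fst (5.34) lay above Nog (4.82) in the controls, and Chrd (4.66) lay above Nog (3.54) in the mutants, in mean CPM per kilobase.

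**Figure D3:**
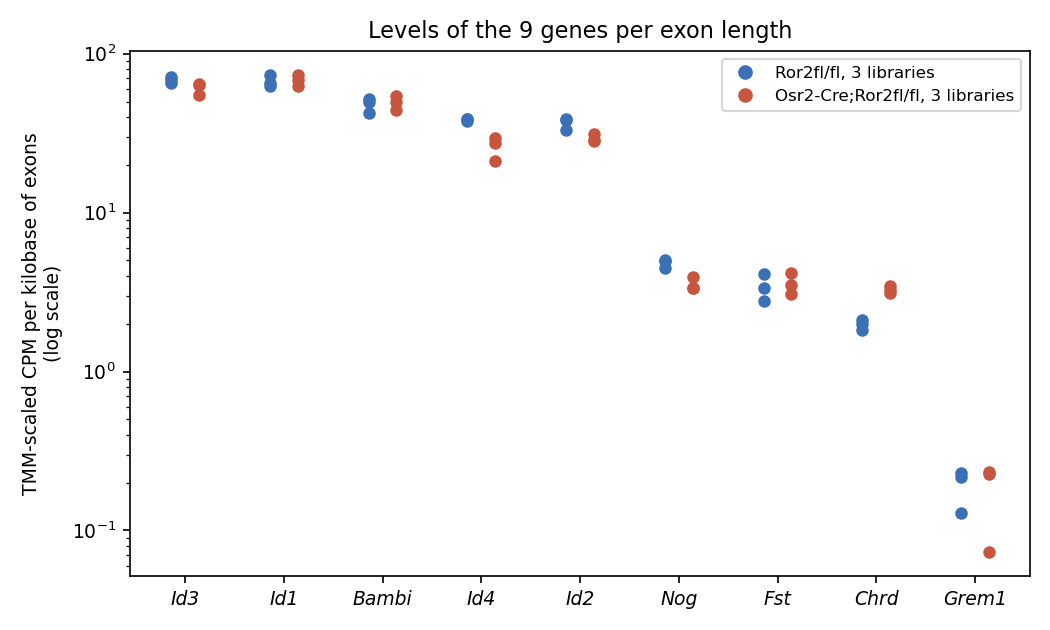
TMM-scaled CPM per kilobase of exons on a log axis for the 9 genes, ordered by their control mean, with 3 control libraries in blue and 3 Osr2-Cre;Ror2fl/fl libraries in red for each gene. The 4 Id genes and Bambi lie between 21.1 and 73.9 CPM per kilobase, while Nog, Fst and Chrd lie between 1.82 and 5.01 and Grem1 under 0.24.

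The base composition of a transcript moved with the calls over all genes. Genes called higher in the mutants had a median GC content of 53.3%, those called lower 44.4% and all genes tested 49.6%. Id4, whose call the offset for GC content ended, is GC-poor, at 42.6%. Chrd, at 53.7% GC, stayed called under that offset (0.62, adjusted p = 0.0087). Nog is GC-rich, at 56.2%, yet was lower in the mutants, and the offset moved its log2 fold change from -0.45 to -0.62 (adjusted p = 0.018). For Id3, at 55.6% GC, the offset moved the value from -0.17 to -0.33 (adjusted p = 0.058), and for Id2, at 45.1% GC, from -0.31 to -0.15 (adjusted p = 0.25).

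**Figure D4:**
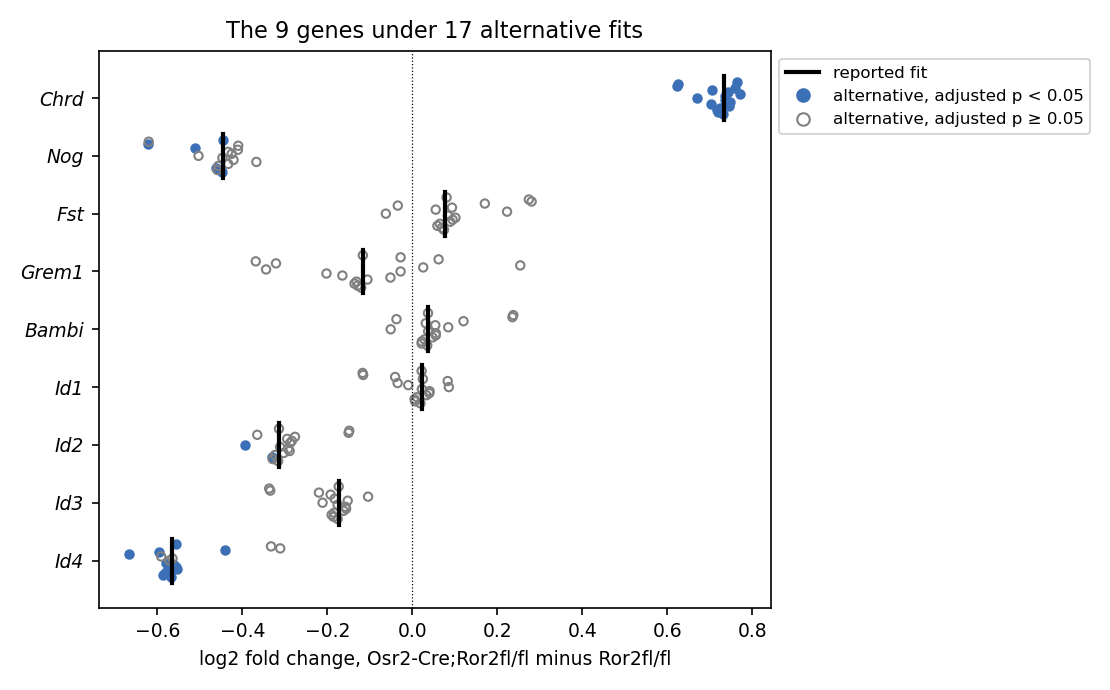
Log2 fold changes of the 9 genes in 17 alternative fits, filled where the adjusted p is under 0.05 and open where it is not, with a black bar at the reported value. All 17 points of Chrd are filled and lie between 0.62 and 0.77, 12 of 17 are filled for Id4, 5 for Nog, 2 for Id2 and none for the other genes, and points of Fst, Grem1, Bambi and Id1 lie on both sides of 0.

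The other genes of the pathway were read from 6 lists of 80 genes in all, of which 72 were tested. Of these, 3 were called higher and 10 lower (with library size alone as the scaling, 1 higher and 16 lower), against 20.2% of all genes tested called, 10.4% higher and 9.84% lower. The 13 called genes are given here by role and are not a larger share than over all genes. Among 16 other extracellular modulators tested, 1 rose and 4 fell (median log2 fold change -0.21). Sost encodes sclerostin, an inhibitor of Wnt signaling that can also bind BMPs. It fell from 6.62 ± 2.06 to 1.0 ± 0.309 CPM (log2 fold change -2.72, edgeR adjusted p = 0.0014). Sost was also on the bone marker list below, where it was the 1 gene called lower. Twsg1, encoding a partner of chordin in binding BMPs, fell from 179 ± 6.79 to 126 ± 19.7 CPM (-0.51, edgeR adjusted p = 0.031), in the libraries where Chrd rose. Tll1, encoding a protease that cuts chordin, fell from 22.1 ± 3.66 to 13.8 ± 2.98 CPM (-0.68, adjusted p = 0.040). Cer1, encoding a secreted antagonist of BMP and Nodal, was scarce and fell from 0.842 ± 0.389 to 0.244 ± 0.0537 CPM (-1.77, adjusted p = 0.028). Rgma, encoding a BMP co-receptor, rose from 43.8 ± 6.05 to 58.9 ± 2.57 CPM (0.43, adjusted p = 0.035).

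Of 13 ligands tested, 2 fell and none rose at an adjusted p under 0.05 in edgeR's test, and the median log2 fold change was -0.35. Bmp5 fell from 46.4 ± 10.1 to 26.8 ± 5.54 CPM (-0.79, adjusted p = 0.028) and Gdf10, also called Bmp3b, from 5.10 ± 0.288 to 2.11 ± 0.298 CPM (-1.27, adjusted p = 0.0030). Of 7 receptor genes tested, 2 fell (median log2 fold change -0.13). The type I receptor Bmpr1a fell from 184 ± 7.80 to 119 ± 26.1 CPM (-0.63, adjusted p = 0.032) and the type II receptor Bmpr2 from 295 ± 40.7 to 155 ± 55.7 CPM (-0.93, adjusted p = 0.042), both lowest in mutant library 2. With GC content as an offset, 5 of the 13 pathway genes were no longer called: Bmpr1a (adjusted p = 0.094), Bmpr2 (0.083), Bmp5 (0.074), Twsg1 (0.052) and Rgma (0.21).

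Of 15 Smads and their regulators, Zeb2, encoding a Smad-binding repressor, was called, at 70.8 ± 12.1 CPM in the controls and 39.7 ± 8.04 CPM in the mutants (-0.84, edgeR adjusted p = 0.017). Of 11 other targets, the homeobox gene Msx2 rose from 168 ± 8.59 to 219 ± 17.5 CPM (0.38, adjusted p = 0.042) and the repressor gene Hey1, which Notch also activates, fell from 108 ± 14.3 to 67.7 ± 6.82 CPM (-0.67, adjusted p = 0.012). Msx2 and the Id genes, all targets of BMP signaling, therefore did not share 1 direction. Of 12 genes for bHLH factors tested, Bhlhe40 was called, at 24.0 ± 2.43 CPM in the controls and 32.9 ± 2.05 CPM in the mutants (0.46, adjusted p = 0.024). Sost and Gdf10 kept their call in all 17 alternatives, Hey1 lost it in 2 and the other 10 genes in 3 to 9. Without control library 2, or without control library 3, only Sost and Gdf10 of the 13 remained called, and 4 of them did without mutant library 1 (Sost, Gdf10, Zeb2 and Hey1).

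**Figure D5:**
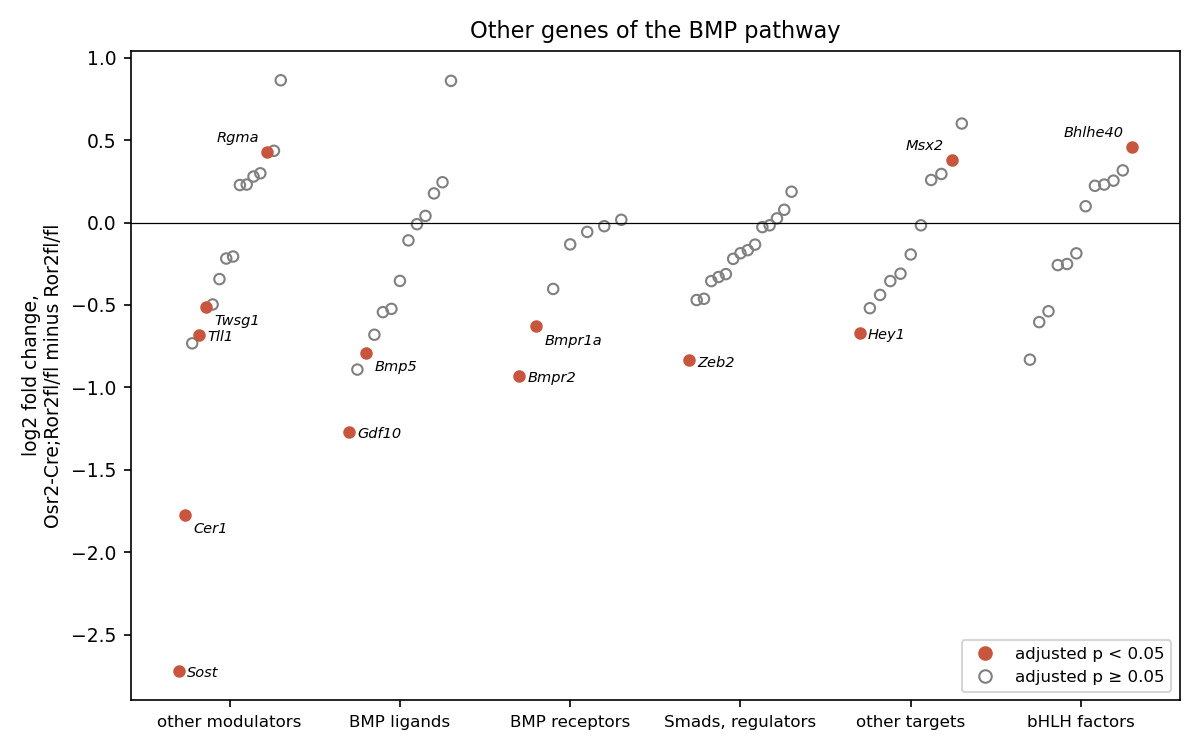
Log2 fold change, Osr2-Cre;Ror2fl/fl minus control, of the tested genes of each of 6 BMP pathway lists, filled and named where the edgeR adjusted p is under 0.05. Most called genes lie below 0, from Tll1 and Twsg1 to Sost at -2.72, and Rgma, Msx2 and Bhlhe40 lie above 0.

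Markers of other cell types also moved with the groups, and their part in the values of the 9 genes was not tested. Of 9 skeletal muscle markers tested, 8 were called lower in the mutants, with summed levels of 12.3 to 40.6 CPM in the controls and 3.60 to 4.89 CPM in the mutants. The summed Schwann cell markers (137 to 145 CPM against 103 to 116) and pericyte and smooth muscle markers (462 to 544 against 378 to 453) were lower in every mutant library, with 1 of 9 called higher and 1 lower in each list. The most abundant muscle markers, Acta1 (9.16 ± 3.81 and 1.33 ± 0.0646 CPM) and Myh8 (5.43 ± 5.76 and 0.199 ± 0.108), were called lower, as was Pmp22 of the Schwann list (101 ± 8.33 and 64.8 ± 8.80), while Mbp (14.03 ± 4.07 and 13.8 ± 2.30), Rgs5 (162 ± 39.6 and 108 ± 16.6) and Notch3 (86.0 ± 7.82 and 72.7 ± 14.3) were not. In the other 9 lists the sums overlapped. For dental epithelium they were 172000 to 192300 CPM in the controls and 185400 to 255800 CPM in the mutants (1 of 12 called, lower), and for odontoblasts 20560 to 60800 against 17820 to 47590 (0 of 10 called). The sums were 321 to 372 against 347 to 406 CPM for dental mesenchyme (1 of 9 called, higher), 246 to 318 against 257 to 312 for endothelium (1 of 10, higher) and 124 to 144 against 124 to 171 for macrophages and leukocytes (1 of 10 higher, 1 lower). Bone (802 to 925 against 766 to 881 CPM, 1 of 5 higher and 1 lower), dental follicle (2458 to 3091 against 2261 to 2989, 1 of 9 lower), erythroid cells (784 to 1331 against 245 to 942, 2 of 7 lower) and cartilage (341 to 745 against 217 to 435, 3 of 5 lower) completed the lists. No listed marker in the table was at 0 in all 6 libraries.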

How the data were processed

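The authors deposited estimated counts per gene for mm10, of which 47.8% were whole numbers. Single-end reads had been aligned, with TopHat in the study's methods and STAR 2.6.1d and Partek in the submitters' processing notes. The counting program's use of strand and its annotation are not given in the sources used here. A second deposited table holds a normalized signal per gene, equal to the count plus 1 times a factor per library, and served an alternative only. The count table holds 6 further sample columns that were not used.

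Counts had been assumed to be whole when the tests were set, so they were rounded. They were scaled with TMM and filtered with filterByExpr, leaving 19330 genes, and tested with edgeR 4.0.16 (glmQLFit, glmQLFTest, no covariate) in R 4.3.3, with Benjamini-Hochberg adjustment over all genes. Means ± SD are of TMM-scaled CPM, and exact permutation tests used log2 CPM or log2 ratios. Fits were tested on simulated data. Alternatives used DESeq2 1.42.0, limma 3.58.1 on log2 values, other scalings and filters, a replicate block, a GC offset, counts summed over genes sharing at least 20 stretches of 75 bases, and leaving out each library. Gene coordinates and exon lengths are from GENCODE M21, whose limits match the table for 27477 of 27506 genes, and promoters from RefSeq. No libraries of the same group agreed within counting error.

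Groups were taken from the genotype in the labels. The text names the 9 genes, Ror2, pathway genes with an adjusted p under 0.05, the 3 genes with the profile most like Chrd or Id4, and, of the 2 most abundant genes of each marker list, Amelx and those of lists whose sums did not overlap. Genes that overlap a member were named after their values were seen. The members and all gene lists were chosen with earlier results of these data known.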

Additional observations from a re-analysis of the deposited data

How the results depend on the processing

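Over all genes, 3906 calls became 872 to 5001 when 1 library was left out (910 without control library 2, 872 without control library 3 and 2404 without mutant library 1), 2013 with a replicate block and 1287 with the block and the GC offset. Among the 9 genes, 3 calls became 1 to 3 with a library left out, with 1 remaining (Chrd) without control library 2 or 3, and 1 with the block and the GC offset. Among the pathway lists, 13 calls became 2 to 13 with a library left out, 22 with DESeq2's Wald test, 7 with the block and 5 with the block and the GC offset. The block used the sample index in the labels, but same-numbered libraries did not deviate together (correlations -0.161, -0.064 and 0.037). The same index numbers recur in both groups, and the labels give no other link between libraries of the same number. The study's methods mention 3 pairs of samples, but do not say which libraries made a pair or that the test was paired. Only mutant library 3 correlated best with the library of its own number (0.037).

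For Grem1, Fst, Bambi and Id1, which were not called, the sign of the log2 fold change depended on the fit. With a library left out, it ran from -0.37 to 0.25 for Grem1, from -0.063 to 0.22 for Fst, from -0.051 to 0.12 for Bambi and from -0.041 to 0.086 for Id1. With the GC offset it was 0.062 for Grem1 and -0.12 for Id1, and with the block and the offset -0.12 for Id1. Ranks of levels in the controls were the same for 5 of 9 genes with the longest transcript. The directions of Chrd, Nog, Id2, Id3 and Id4 did not change in any of the 17 alternatives. The cause of these shifts was not tested. Where a library was left out, its group kept 2 libraries. Grem1 had the fewest counts, at 18 to 59 per library, and the part of depth in its wide interval was not tested. The 3 libraries a group limit every exact test to p = 0.10 or more.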

Other observations

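The genes most like Chrd over the 6 libraries, by the root mean square difference of log2 CPM after each gene's own mean was subtracted, were Tmem37 (0.0433), Gpatch4 (0.0575) and Neurl3 (0.0576), out of 19329 genes compared. Tmem37, which encodes a transmembrane protein, measured 0.798 ± 0.0728 CPM in the controls and 1.37 ± 0.0243 CPM in the mutants (SD, n = 3 each), Gpatch4 4.95 ± 0.170 and 8.21 ± 0.642 CPM, and Neurl3, which encodes a ubiquitin ligase, 1.40 ± 0.118 and 2.20 ± 0.184 CPM. All 3 were called higher in edgeR's test (adjusted p = 0.042, 0.0089 and 0.047), but Tmem37 lost its call in 9 of 17 alternatives, Neurl3 in 10 and Gpatch4 in 3.

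The genes most like Id4 were mt-Nd4 (0.0490), Ap3s1 (0.0553) and Insyn1 (0.0689). The mitochondrial gene mt-Nd4, which encodes a subunit of respiratory complex I, measured 3126 ± 32.4 CPM in the controls and 2045 ± 263 CPM in the mutants (log2 fold change -0.61, edgeR adjusted p = 0.024). With GC content as an offset, its log2 fold change was -0.15 (adjusted p = 0.52), as that of Id4 also moved toward 0. Ap3s1, which encodes a subunit of an adaptor complex, fell from 22.7 ± 0.487 to 15.9 ± 2.24 CPM, and Insyn1 from 56.8 ± 2.22 to 40.2 ± 5.99 CPM (adjusted p = 0.025 for each). Of 17 alternatives, mt-Nd4 lost its call in 9, Ap3s1 in 6, the GC offset included (log2 fold change -0.21, adjusted p = 0.33), and Insyn1 in 3. These likenesses were chosen from the same libraries and carry no test of their own.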
